A study of Mus musculus with 4 samples.

Results

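Transcripts of 10 genes that mark T cells, Cd3d, Cd3e, Cd3g, Cd247, Thy1, Lck, Cd7, Nkg7, Gzmb and Itgae, were followed in RNA from Langerhans cells of mouse epidermis. They were taken by symbol from the 24441 symbols in the expression tables, each had a single locus there, and all 10 were among the 10910 symbols that averaged 1 FPKM or more and were tested. FPKM scales fragments by transcript length and by the mapped fragments of a library, so levels of different genes can be set side by side per length. The cells were sorted from epidermal suspensions of mice aged 4 weeks. One group was wild type (WT). The other, Tfam cKO, carried CD11cCreTfamfl/fl, in which a Cre recombinase under the promoter of CD11c, the integrin gene Itgax, acts on floxed alleles of Tfam, a mitochondrial transcription factor gene. The labels do not say whether WT mice carried Cre or loxP sites. Each group had 2 libraries, called WT 1, WT 2, Tfam cKO 1 and Tfam cKO 2 here. The mice behind each library are not named, and p-values reflect the spread among these 4 libraries alone. The 2 libraries of each genotype differed in Y-linked transcripts, as given below, so they are not repeats of the same RNA. How many mice each library holds is not stated.

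Mouse epidermis holds a resident population of gamma-delta T cells, the dendritic epidermal T cells, which sit among keratinocytes beside the Langerhans cells. Their T cell receptor signals through the CD3 chains and the zeta chain, which carry the tyrosine motifs that the kinase LCK phosphorylates. The cells are known for a nearly uniform receptor, for the integrin CD103 that binds E-cadherin on keratinocytes, and for roles in wound repair and surveillance of stressed keratinocytes.

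Sequencing depth, derived from Cufflinks' intervals, was 1.37 times that of WT 1 in WT 2, 0.884 times in Tfam cKO 1 and 1.56 times in Tfam cKO 2. Tfam itself stood at 3.17 and 1.61 FPKM in the WT libraries and 1.65 and 1.53 FPKM in those of Tfam cKO, so the targeted gene, whose reads may come from outside the deleted part, did not separate the groups, and directions below rest on the labels. The 4 Y-linked genes examined were all listed at 0 in both libraries numbered 1 and in neither numbered 2. Cd207, the langerin gene that defines Langerhans cells, ranged from 1374 to 2098 FPKM. The keratinocyte keratin gene Krt5 ranged from 3003 to 4598 FPKM, above Cd207 in each library.

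Transcripts of the T cell receptor complex were present in every library, and they were lowest in Tfam cKO 1. The summed level of Cd3d, Cd3e, Cd3g and Cd247 was 142 and 166 FPKM in libraries WT 1 and 2 and 78.3 and 139 FPKM in libraries Tfam cKO 1 and 2. Tfam cKO 2 thus lay next to WT 1, and a single library stood well below the other 3. In bulk RNA, fewer T cells in a sort and less of these transcripts per T cell cannot be told apart. The label of dendritic epidermal T cells could be checked only in part. Of 12 T cell receptor chain genes chosen for this purpose, gamma and delta chain genes among them, only Ptcra had an entry. Ptcra, the pre-T alpha chain of immature thymocytes, was at 0 in all 4 libraries. The gamma and delta chain genes had no entry under the symbols searched. Cd8a and Cd8b1, the CD8 coreceptor chains of conventional alpha-beta T cells, were listed at 0 in 3 libraries and at 0.0329 and 0.0407 FPKM in Tfam cKO 2. The 10 genes are therefore called T cell transcripts below.

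The CD3 gamma, delta and epsilon chains are encoded side by side. In the coordinates of the tables, Cd3g lies on chromosome 9 from 44777654 to 44788514, Cd3d from 44789868 to 44795135 and Cd3e from 44806825 to 44817673. The processing notes name mm10, but none of the 10 loci overlapped the RefSeq gene of that name in GRCm38. Of 23784 symbols shared with RefSeq, 11.3% overlapped their position there. Most positions therefore did not match the build named, and the build of the tables is unresolved. Transcripts of Cd3g, Cd3d and Cd3e were highest in WT 2 and lowest in Tfam cKO 1. So were those of Cd247 on chromosome 1 and of Cd7 and Itgae on chromosome 11. The windows around the gene starts of the 3 neighbours are shown. They are RefSeq sequences of GRCm38.p6, given 5′ to 3′ on each gene's strand, Cd3d at chr9:44981536-44981835 on the plus strand, Cd3e at chr9:45009562-45009861 and Cd3g at chr9:44980382-44980681 on the minus strand. Capitals mark the E-box CACCTG, a motif of the kind that E proteins such as E2A bind.
Cd3d: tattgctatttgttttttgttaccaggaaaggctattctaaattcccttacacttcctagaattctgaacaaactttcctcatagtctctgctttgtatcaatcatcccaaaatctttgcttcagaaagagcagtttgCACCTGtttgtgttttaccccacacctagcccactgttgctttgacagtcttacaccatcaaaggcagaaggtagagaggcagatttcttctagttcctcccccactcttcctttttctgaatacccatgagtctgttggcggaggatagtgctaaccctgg
Cd3e: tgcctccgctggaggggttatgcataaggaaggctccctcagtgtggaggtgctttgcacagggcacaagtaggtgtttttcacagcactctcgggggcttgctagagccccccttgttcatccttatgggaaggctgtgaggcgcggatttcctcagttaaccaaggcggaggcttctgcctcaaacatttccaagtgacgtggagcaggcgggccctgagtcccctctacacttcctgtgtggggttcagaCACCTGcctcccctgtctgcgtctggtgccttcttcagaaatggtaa
Cd3g: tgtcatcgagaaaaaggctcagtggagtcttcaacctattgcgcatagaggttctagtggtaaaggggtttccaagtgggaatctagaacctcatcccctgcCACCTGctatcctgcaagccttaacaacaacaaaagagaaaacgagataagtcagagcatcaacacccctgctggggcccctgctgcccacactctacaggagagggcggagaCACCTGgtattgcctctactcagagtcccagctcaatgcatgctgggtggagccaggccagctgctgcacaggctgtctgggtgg
The gene starts of Cd3g and Cd3d, which lie inside their windows, are 1355 bases apart on opposite strands. CACCTG or its reverse complement CAGGTG was in 6 of 8 windows available for 7 of the 10 genes, among them Cd247 and both windows of Lck, and in none of those of Nkg7 and Gzmb. Of all 32851 windows of that length, 20.2% held it. The ETS-type motif AGGAAG (reverse CTTCCT) was in 6 of the 8 windows and in 35.4% of all, the RUNX-type motif TGTGGT (reverse ACCACA) in 3 of the 8 and in 16.8% of all, and TATAAA (reverse TTTATA) in 0 of the 8 and in 13.6% of all. No motif contains another. They were chosen after the windows had been seen, and a match is a string of letters, not a shown binding site.

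Cd3g, which encodes the gamma chain of CD3, had the highest level per length of the complex and the largest fold change of the 10 genes. Its level was 79.2 and 85.1 FPKM in libraries WT 1 and 2 and 36.9 and 70.1 FPKM in libraries Tfam cKO 1 and 2. Both Tfam cKO libraries were below both WT libraries, but Cufflinks' 95% interval of Tfam cKO 2, 65.9 to 74.3 FPKM, overlapped that of WT 1, 73.7 to 84.8 FPKM. The mean was 82.2 ± 4.19 FPKM for the WT pair and 53.5 ± 23.5 FPKM for the Tfam cKO pair (SD, n = 2 each), so the spread in Tfam cKO came near the difference of the means. The log2 fold change of FPKM + 1 was −0.68 (SE 0.28, limma 95% interval −1.32 to −0.04, limma adjusted p = 0.790 over all genes). Without Tfam cKO 2 it was −1.13 and passed the threshold (limma adjusted p = 0.0366), and without Tfam cKO 1 it was −0.23 and did not (limma adjusted p = 0.9999). All its alternatives lay between those 2 adjusted p-values.

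Cd3e, the epsilon chain that pairs with both gamma and delta, was at 26.4 and 36.8 FPKM in libraries WT 1 and 2 and 18.6 and 28.4 FPKM in libraries Tfam cKO 1 and 2. Tfam cKO 2 fell between the WT libraries, so the groups overlapped (log2 fold change −0.42 with SE 0.24, limma adjusted p = 0.872). Cd3d, the delta chain, was at 11.9, 14.95, 7.18 and 13.4 FPKM in the same order of libraries. It too had only Tfam cKO 1 below both WT libraries, and its log2 fold change was −0.40 (SE 0.27, limma adjusted p = 0.894). Cd247, on chromosome 1 from 167718811 to 167801284, encodes the zeta chain and was at 24.3, 29.0, 15.6 and 26.8 FPKM. Its groups overlapped as well (log2 fold change −0.36, SE 0.25, limma adjusted p = 0.897). The limma 95% intervals of these 3 fold changes ran from −0.98 to 0.14 for Cd3e, −1.01 to 0.21 for Cd3d and −0.93 to 0.21 for Cd247, which leaves room for a decrease of about 1 log2 unit as well as for none.

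Cd247 and Cd3d kept roughly the same proportion to Cd3e in the 4 libraries. Relative to Cd3e per length, Cd247 ranged from 0.787 to 0.944 and Cd3d from 0.386 to 0.473. Cd3g varied more, from 1.98 times Cd3e in Tfam cKO 1 to 3.01 times in WT 1.

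**Figure D1:**
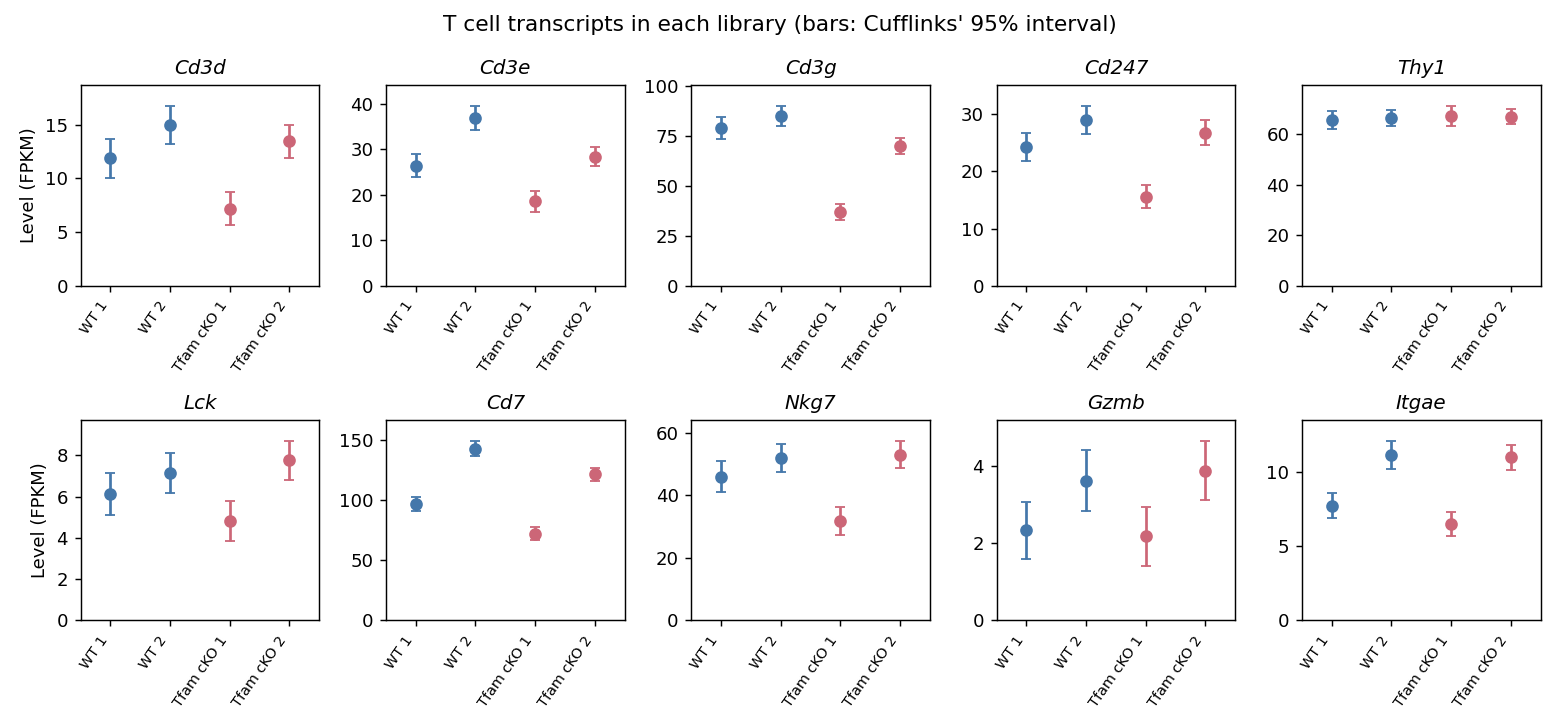
Level of each T cell transcript in FPKM (vertical axes from 0, one scale per gene) in the 4 libraries, WT in blue and Tfam cKO in red; points are deposited values and bars Cufflinks' 95% interval, which covers the estimate within a library only. Tfam cKO 1 is the lowest library for 9 of the 10 genes, and Thy1 stays between 65.6 and 67.0 FPKM.

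Lck encodes the Src-family kinase that starts signalling at the receptor and lies on chromosome 4 from 129225587 to 129250885. It was at 6.12 and 7.16 FPKM in libraries WT 1 and 2 and 4.82 and 7.75 FPKM in libraries Tfam cKO 1 and 2. The Tfam cKO libraries lay on either side of the WT pair (log2 fold change −0.09, SE 0.22, limma 95% interval −0.59 to 0.40, limma adjusted p = 0.977).

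Cd7, an immunoglobulin-family surface protein of T and NK cells on chromosome 11 from 120898062 to 120900792, had the highest level of the 10. It was at 97.0 and 143 FPKM in libraries WT 1 and 2 and 72.3 and 122 FPKM in libraries Tfam cKO 1 and 2. WT 2 was 1.47 times WT 1, a wide spread within 1 genotype, and the groups overlapped (log2 fold change −0.33, SE 0.29, limma adjusted p = 0.923). Relative to Cd3e it ranged only from 3.68 to 4.29.

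Thy1, a GPI-anchored surface protein used to identify these T cells in epidermal sheets, on chromosome 9 from 43851466 to 43856662, behaved differently from the CD3 chains. It was at 65.6 and 66.3 FPKM in libraries WT 1 and 2 and 67.0 and 66.8 FPKM in libraries Tfam cKO 1 and 2. Its highest value was 1.02 times its lowest, against 2.31 times for Cd3g and 1.61 to 2.08 times for the other 8. The Tfam cKO pair lay above the WT pair, though all 4 Cufflinks intervals overlapped, and the log2 fold change was 0.02 (SE 0.17, limma 95% interval −0.37 to 0.41, limma adjusted p = 0.996). That sign turned to −0.10 after quantile normalization and after rescaling to equal totals. Tfam cKO 1, where Cd3e was lowest, therefore had the highest ratio of Thy1 to Cd3e, 3.60, against 1.80 to 2.49 in the other 3 libraries.

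Nkg7, a cytotoxic granule membrane protein on chromosome 7 from 50692507 to 50693616, was at 46.0 and 52.1 FPKM in libraries WT 1 and 2 and 31.8 and 53.0 FPKM in libraries Tfam cKO 1 and 2. Tfam cKO held both the lowest and the highest library (log2 fold change −0.25, SE 0.25, limma adjusted p = 0.931). Gzmb, the serine protease granzyme B on chromosome 14 from 56877672 to 56881171, had the lowest level of the 10, at 2.33, 3.61, 2.18 and 3.87 FPKM in the same order. The width of Cufflinks' interval corresponds to 32.7 fragments in Tfam cKO 1 and 103 in Tfam cKO 2. How reads shared with related granzyme genes were divided is not stated in the labels. The log2 fold change of Gzmb was 0.01 (SE 0.26, limma adjusted p = 0.997), with a limma 95% interval of −0.58 to 0.59 and a negative sign after quantile normalization (−0.03) and after rescaling (−0.11).

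Itgae, the alpha chain of the integrin CD103, lies on chromosome 11 from 72904096 to 72960951. It was at 7.76 and 11.2 FPKM in libraries WT 1 and 2 and 6.51 and 11.01 FPKM in libraries Tfam cKO 1 and 2. In each genotype the library numbered 2 was higher, and the groups overlapped (log2 fold change −0.12, SE 0.25, limma adjusted p = 0.977). The beta partner of CD103, Itgb7, gave 10.3 and 11.8 FPKM in the WT libraries and 14.6 and 14.2 FPKM in those of Tfam cKO, and its ligand E-cadherin, Cdh1, gave 193 and 167 FPKM in the WT libraries and 239 and 220 FPKM in those of Tfam cKO. Both were above WT in both Tfam cKO libraries without passing the test (limma adjusted p = 0.822 and 0.868). E-cadherin is made by keratinocytes and by Langerhans cells as well.

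By mean level over the 4 libraries the order was Cd7 at 108 FPKM, Cd3g at 67.8, Thy1 at 66.4, Nkg7 at 45.7, Cd3e at 27.5, Cd247 at 23.9, Cd3d at 11.9, Itgae at 9.11, Lck at 6.46 and Gzmb at 2.995. The ranges over libraries did not overlap between Thy1 and Nkg7, between Cd247 and Cd3d, or between Lck and Gzmb. The other neighbours in that order had overlapping ranges. Within each library the order held in all 4 for every neighbouring pair except Cd3g and Thy1, where Thy1 was the higher in Tfam cKO 1.

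Taking the 10 together, 0 passed the limma adjusted threshold of 0.05 in either direction. With the replicate number as a term in the fit it was also 0, beside 0.357% of tested genes lower and 1.33% higher. In the fit by genotype alone 0.0183% of tested genes passed, all of them higher in Tfam cKO, and 0% passed as lower. At an unadjusted p below 0.05, Cd3g was the only one of the 10, where 1.19% of tested genes were lower and 5.01% higher by that rule. Both Tfam cKO libraries were below both WT libraries for 1 of the 10, Cd3g, against 9.75% of tested genes, and above for 1, Thy1, against 25.4%. The share of 1 in 10 below is near that background. The log2 fold change was negative for 8 of the 10 as deposited, beside 34.8% of tested genes. After quantile normalization or rescaling it was negative for all 10. The medians of all tested genes were then negative too, at −0.009 and −0.04, so the 34.8% is no background for that count. The median of the 10 was −0.29, beside 0.07 for all tested genes, and rescaling to equal totals moved these medians to −0.41 and −0.04, the latter a shift of −0.11 on the log2 scale.

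**Figure D2:**
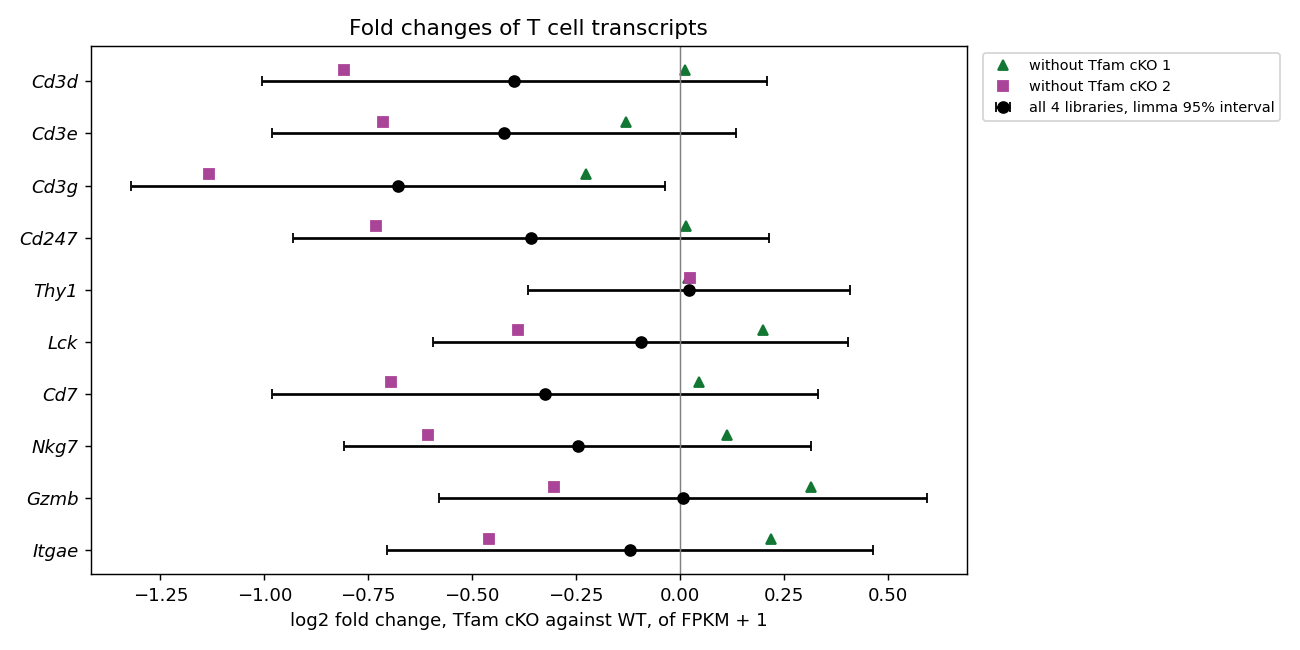
Log2 fold change of FPKM + 1, Tfam cKO against WT, for each T cell transcript; black points and bars are the fit of all 4 libraries with limma's 95% interval, triangles the fit without Tfam cKO 1 and squares the fit without Tfam cKO 2. Without Tfam cKO 1 the values lie between −0.23 and 0.31, and without Tfam cKO 2 all but Thy1 are negative.

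A single library set the sign of the median. Tfam cKO 1 was the lowest of the 4 libraries for 9 of the 10 genes, all but Thy1, beside 18.7% of tested genes. It stood at 47.2% of the mean of the other 3 libraries for Cd3g and at 68.7% for Lck, with the other genes but Thy1 in between. Without Tfam cKO 1 the median of the 10 log2 fold changes was 0.03, beside 0.07 for all tested genes. In that fit 2 of 10 were negative, Cd3e and Cd3g. Without Tfam cKO 2 the median was −0.65, beside 0.08, and 9 of 10 were negative. Without WT 1 it was −0.42, beside 0.13, and without WT 2 it was −0.10, beside 0.01. The median of the 10 was thus below that of all tested genes in each of these fits. The share of all tested genes that were negative in them was not counted.

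The libraries also differed by their number. Library 2 was above library 1 in both genotypes for 9 of the 10 genes, again all but Thy1, beside 20.6% of tested genes. Within the libraries numbered 1, Tfam cKO was below WT for 9 of the 10 genes, beside 47.2% of tested genes, with a median log2 difference of −0.45. Within those numbered 2 it was below for 6 of the 10, beside 30.9%, with a median of −0.06. The medians over all tested genes were 0.02 within number 1 and 0.13 within number 2, so the 10 lay below them in both. The labels do not say what the numbers stand for beyond replicates. Depth and Y-linked transcripts differed along the same line, and their part in the levels of the T cell transcripts was not tested.

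Other lymphocyte genes were compared in the same way. None of 16 tested genes of T cell signalling and coreceptors, 12 of innate lymphocyte receptors and T cell effectors and 3 of cytotoxic granules passed the limma adjusted threshold. At an unadjusted p below 0.05 there were Trat1, Il7r, Cd244, Jaml and Prf1, of which only Il7r was higher in Tfam cKO, so 4 of the 31 were lower and 1 higher, beside 1.19% and 5.01% of tested genes by that rule. Across these 31 genes Tfam cKO 1 was the lowest library for 23, beside 18.7% of tested genes. Both Tfam cKO libraries were below both WT libraries for 3 of the 16, 2 of the 12 and 1 of the 3, beside 9.75% of tested genes, and above for 1, 1 and 0, beside 25.4%. The median log2 fold changes were −0.13, −0.08 and −0.68, beside 0.07 for all tested genes.

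**Figure D3:**
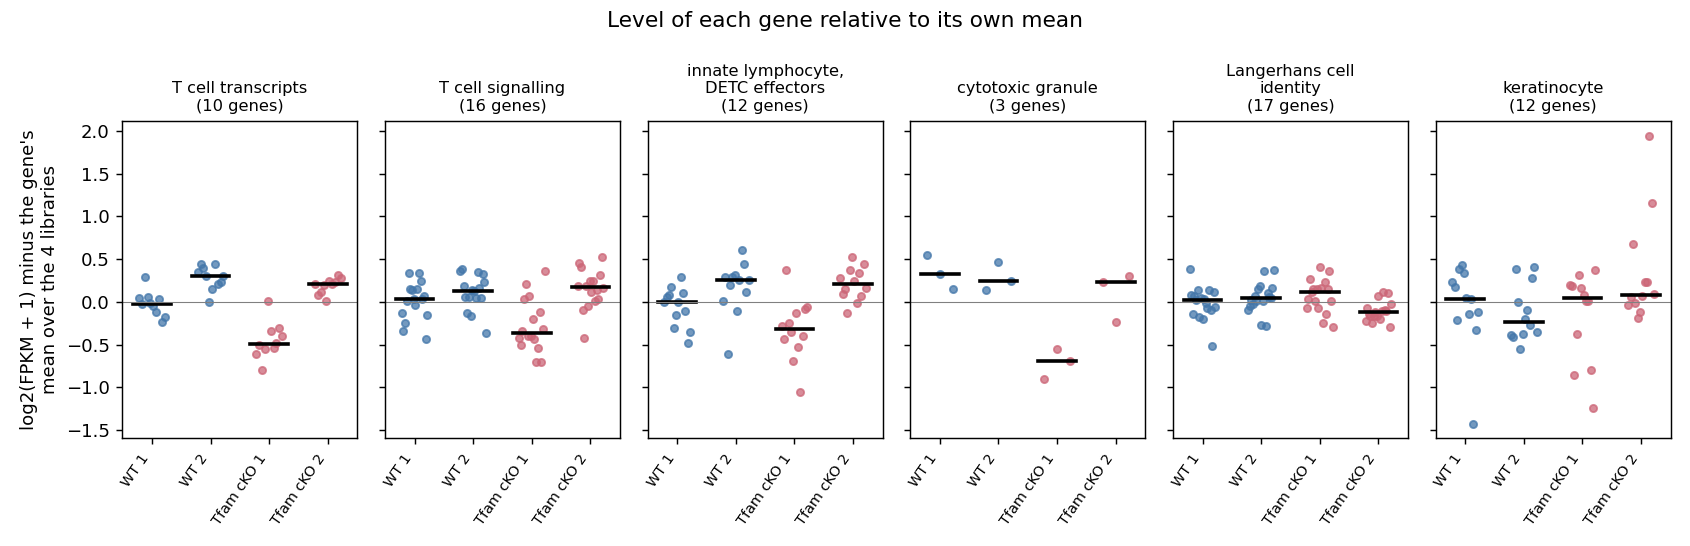
Log2(FPKM + 1) of each tested gene minus that gene's mean over the 4 libraries, for 6 lists; each point is a gene, and black bars are the list's median in that library. The medians of the T cell transcripts and of the 3 other lymphocyte lists are lowest in Tfam cKO 1, while the Langerhans cell list has its highest median there.

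In the signalling list the 3 genes of highest level went separate ways. Il7r, the receptor chain for IL-7, gave 40.1 and 34.5 FPKM in the WT libraries and 57.5 and 50.2 FPKM in those of Tfam cKO, above WT in both libraries (log2 fold change 0.52, limma adjusted p = 0.663). Il2rb, the beta chain of the IL-2 and IL-15 receptors, gave 31.0 and 49.5 FPKM in the WT libraries and 33.4 and 60.7 FPKM in those of Tfam cKO, so it split by library number and not by genotype. Cd2, an adhesion receptor of T and NK cells, gave 44.0 and 41.4 FPKM in the WT libraries and 29.9 and 45.3 FPKM in those of Tfam cKO, low only in Tfam cKO 1. Trat1, an adaptor that binds the CD3 complex and was chosen after its values were seen, had the order of Cd3g, with 22.3 and 22.6 FPKM in the WT libraries and 10.3 and 17.6 FPKM in those of Tfam cKO (log2 fold change −0.69, limma adjusted p = 0.663).

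Among innate lymphocyte and effector genes, Xcl1, a chemokine of activated T and NK cells, gave 48.7 and 69.6 FPKM in the WT libraries and 21.2 and 57.6 FPKM in those of Tfam cKO. It was lowest in Tfam cKO 1, like the CD3 chains. Cd244, the receptor 2B4, gave 19.3 and 19.7 FPKM in the WT libraries and 14.1 and 15.5 FPKM in those of Tfam cKO, below WT in both libraries (log2 fold change −0.37, limma adjusted p = 0.804). Areg, the epidermal growth factor family member amphiregulin, gave 34.7 and 53.2 FPKM in the WT libraries and 46.2 and 66.7 FPKM in those of Tfam cKO, and keratinocytes can make it too. Ncr1, a defining receptor gene of NK cells, was listed at 0 in all 4 libraries.

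Of the cytotoxic granule genes, Ctsw, the lymphocyte protease cathepsin W, gave 20.1 and 21.6 FPKM in the WT libraries and 10.8 and 22.6 FPKM in those of Tfam cKO. Prf1, which encodes perforin, gave 5.69 and 6.39 FPKM in the WT libraries and 2.67 and 3.55 FPKM in those of Tfam cKO, with both Tfam cKO libraries below WT (log2 fold change −0.78, SE 0.18, limma adjusted p = 0.420). Gzmc, granzyme C, gave 5.24 and 3.69 FPKM in the WT libraries and 1.29 and 4.01 FPKM in those of Tfam cKO. Gzma, granzyme A, and 4 other genes of the list of 11 were listed at 0 in all libraries.

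Of 11 tested T cell transcription factors, none passed in limma. Id3, higher in Tfam cKO, was the only one at an unadjusted p below 0.05, beside 5.01% of tested genes higher by that rule, and the median log2 fold change was 0.04, beside 0.07 for all genes. Tfam cKO 1 was the lowest library for 4 of the 11, beside 18.7% of tested genes. Within the libraries numbered 1, Tfam cKO was below WT for 8 of the 11, beside 47.2%, and within those numbered 2 for 4, beside 30.9%. Whether this list differed from the CD3 chains was not tested. The 3 of highest level, Id3, Zbtb7b and Runx3, averaged 177, 40.5 and 39.9 FPKM, and Runx3 is also a factor of Langerhans cells. Bcl11b and Tcf7, factors of T cell commitment chosen after their values were seen, are among the 4 of the 11 that were lowest in Tfam cKO 1. Bcl11b was at 4.62 FPKM there against 5.84 to 6.68 in the other 3 libraries, and Tcf7 at 3.59 against 5.25 to 5.82. Gata3 and Zbtb16, chosen in the same way, were lowest in WT 2, at 13.4 and 3.26 FPKM against 23.8 and 8.72 FPKM in Tfam cKO 1.

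Of the fixed genes for partners and ligands of the T cell transcripts, Ptprc, the leukocyte phosphatase CD45, gave 61.4 and 59.9 FPKM in the WT libraries and 50.4 and 52.4 FPKM in those of Tfam cKO. Langerhans cells express it as well. None of the 10 tested genes of that list passed in limma, with Igf2r, higher in Tfam cKO, at an unadjusted p below 0.05, beside 5.01% of tested genes higher by that rule. In 4 of the 10 the Tfam cKO pair lay wholly above the WT pair, beside 25.4% of tested genes, and in 2 wholly below, beside 9.75%. The median log2 fold change was 0.11, beside 0.07 for all tested genes. Srgn, which encodes the granule proteoglycan serglycin, gave 26.6 and 28.3 FPKM in the WT libraries and 18.6 and 28.4 FPKM in those of Tfam cKO, low only in Tfam cKO 1. Skint1, a keratinocyte and thymic gene needed for the selection of dendritic epidermal T cells and chosen after its values were seen, gave 6.34 and 3.49 FPKM in the WT libraries and 3.80 and 5.33 FPKM in those of Tfam cKO, with overlapping groups.

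Markers of other cell types were compared library by library, since they could move with the T cell transcripts. The 10 T cell transcripts together made up 0.0991% and 0.133% of the total FPKM of libraries WT 1 and 2 and 0.0664% and 0.107% of that of libraries Tfam cKO 1 and 2. The 17 Langerhans cell genes made up from 6.95% in Tfam cKO 2 to 8.62% in WT 2, with 8.31% in Tfam cKO 1, where 3 of the 17 were lowest. Within the libraries numbered 2, Tfam cKO was below WT for 14 of the 17, beside 30.9% of tested genes. Within those numbered 1 it was below for 8 of the 17, beside 47.2%. In limma 0 of the 17 passed or had an unadjusted p below 0.05. The 12 keratinocyte genes made up 2.84% in WT 2 and 3.37% to 3.77% in the other 3 libraries, with 3.54% in Tfam cKO 1. A list of 12 genes of tissue dissociation and early stress summed to 24038 FPKM in Tfam cKO 1, against 16537 to 18195 FPKM elsewhere, and none of its genes was lowest there. Hspa1a and Hspa1b weighed most in that sum, at 5886 and 6866 FPKM in Tfam cKO 1 against 3285 and 3798 FPKM in WT 2. Fos, Fosb, Junb and Zfp36 were highest in WT 2, and the rest of the list in Tfam cKO 1. Tfam cKO 1 thus combined the lowest depth, the highest summed stress genes and the lowest T cell transcripts, and the part of depth and dissociation in the result was not tested.

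**Figure D4:**
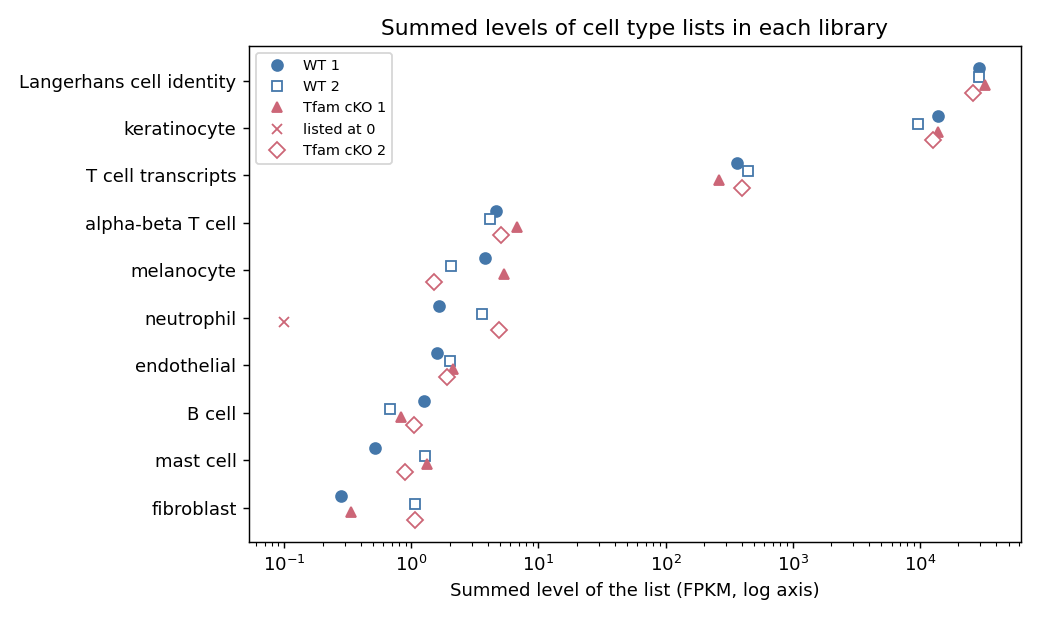
Summed level in FPKM (log axis) of the T cell transcripts and of marker lists for other cell types in each library, WT in blue and Tfam cKO in red; the cross at the left edge marks a list at 0. The T cell transcripts sum to between 263 and 449 FPKM, and the lists for alpha-beta T cells, melanocytes, neutrophils, endothelium, B cells, mast cells and fibroblasts reach at most 6.78 FPKM.

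Besides the T cell and keratinocyte genes given above, 7 lists of other cell types reached at most 6.78 FPKM in any library. The 8 B cell genes in the tables summed to between 0.674 and 1.26 FPKM, with Ms4a1, which encodes CD20, listed at 0 in all 4 libraries. The 5 alpha-beta T cell genes summed to between 4.14 and 6.78 FPKM, most of it Cd4, which Langerhans cells can also express, at 3.96 and 2.91 FPKM in the WT libraries and 6.08 and 4.33 FPKM in those of Tfam cKO. Melanocyte genes summed to between 1.51 and 5.40 FPKM, mast cell genes to between 0.521 and 1.32, neutrophil genes to between 0 and 4.89, fibroblast genes to between 0.278 and 1.07 and endothelial genes to between 1.59 and 2.14. Of the mast cell genes 4 of 5, Mcpt4, Cpa3, Tpsb2 and Cma1, were listed at 0 in all libraries, as were 5 of the 8 neutrophil genes.

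The genes outside the 10 whose profile over the 4 libraries was most like that of the CD3 gamma, delta and epsilon chains were found by Euclidean distance between centred log2(FPKM + 1) values. They were Ptpdc1 (distance 0.124), Mapk8ip1 (0.126), Trpm6 (0.131), A930013F10Rik (0.140) and Dnajc19 (0.141). Cd247 lay at a distance of 0.146, with 5 tested genes outside the 10 closer, Cd7 at 0.255 with 29 closer and Nkg7 at 0.270 with 35 closer. Farther off were Itgae at 0.406 with 188 closer, Lck at 0.430 with 238 closer and Gzmb at 0.532 with 562 closer. Thy1 was the farthest, at 0.781 with 3254 closer. With 4 libraries many of the 10910 genes can share a profile, and Ptpdc1, Mapk8ip1 and Trpm6 were at or below 3.20 FPKM in every library.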

How the data were processed

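RNA sequencing libraries of sorted Langerhans cells were prepared with the NEBNext Ultra kit, per the labels' protocols. The deposited values are gene-level FPKM with the bounds of Cufflinks' 95% interval, 1 table per library, per the file headers. The submitters' processing notes name CASAVA, Cufflinks and mm10 and give no versions. Aligner, annotation and the use of strand: not given in the sources used here.

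Loci of a symbol were summed (301 symbols in 854 rows, none of the 10 T cell genes). Symbols averaging 1 FPKM or more were compared as log2(FPKM + 1), which understates changes of low genes. The 2 Tfam cKO libraries were set against the 2 WT libraries with limma 3.58.1 (R 4.3.3), using a genotype term alone, a mean trend and Benjamini-Hochberg adjustment over all 10910 symbols at 0.05. The fit was tested on simulated data. Effective fragments are the square of FPKM over its standard error, with Cufflinks' interval taken as 2 standard errors each side. Relative depth came from 73 genes whose effective fragments were whole within 0.02 in all libraries. Intervals cover counting error only, and read totals are unknown.

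The 10 genes and the 16 lists beside them were chosen with earlier results of these data known. The text names all 10, of each list the 3 genes of highest level where none passed the threshold and the list is described gene by gene, and the 5 nearest profiles. Further genes are marked as picked with their values known, apart from markers named because they define a cell type or were at 0, a partner, genes at an unadjusted p below 0.05, and genes that check the labels. Promoter windows came from the RefSeq table of GRCm38.p6. Alternatives were quantile normalization, equal totals, pseudocounts of 0.1 and 5, no filter, a filter at 5 FPKM, no mean trend, robust moderation, the replicate block, each library left out and the highest locus per symbol. Figures were drawn with matplotlib 3.10.9.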

Additional observations from a re-analysis of the deposited data

How the results depend on the processing

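With 2 libraries per group, a leave-one-out fit assumes that the lone library varies like the other group. The number of T cell transcripts past the threshold was 0 with all 4 libraries and ranged from 0 to 1 with a library left out, and was 0 under each other alternative. Their median log2 fold change ranged from −0.651 to 0.032 with a library left out and was positive only without Tfam cKO 1. In that fit the median of all tested genes was 0.074. Over all genes 2 passed. That count was 1 with a pseudocount of 5, 0 with no low-value filter, where 16426 were tested, 1 with a filter at 5 FPKM, 5 with robust moderation, 16 to 82 with a library left out and 184 with the replicate block. The replicate numbers share only a number in the labels. The Y-linked genes examined, however, were at 0 in both libraries numbered 1 and in neither numbered 2, so the block also splits libraries by Y-linked transcripts. The deviations of same-numbered libraries correlated with r = 0.26 across 10910 genes. The block called none of the 10, with Cd3g at a limma adjusted p of 0.0548.

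Of 139 alternative values of single T cell transcripts, 124 kept their sign and side of the threshold, 14 changed sign and 1, Cd3g without Tfam cKO 2, passed. With each library left out in turn, log2 fold changes lay at −0.809 to 0.011 for Cd3d, −0.732 to 0.014 for Cd247, −0.390 to 0.1999 for Lck, −0.696 to 0.046 for Cd7, −0.606 to 0.113 for Nkg7, −0.302 to 0.314 for Gzmb and −0.459 to 0.218 for Itgae. The positive ends are those without Tfam cKO 1, and without WT 2 Gzmb (0.240), Lck (0.0034) and Itgae (0.117) were positive too. Gzmb turned to −0.035 with quantile normalization and −0.106 with equal totals, and without WT 1 it was −0.228. Thy1 turned to −0.100 with quantile normalization and −0.102 with equal totals. The cause was not tested. Gzmb fell under the filter at 5 FPKM and has no value there.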
